A study of Homo sapiens with 24 samples.

Results

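In SNU1079 cells, a human intrahepatic cholangiocarcinoma line, the change of the YC-1 effect over time was measured as the difference between the YC-1 effect after 16 h and the YC-1 effect after 6 h. It was taken from 12 of the 24 libraries of the series, 3 in each of 4 groups: YC-1 for 16 h, YC-1 for 6 h, DMSO for 16 h and DMSO for 6 h. The same interaction splits into 2 terms, the change of the YC-1 level between the times and the change of the DMSO level between the times, and every gene was placed by the term that passed the test. The other 12 libraries are the same 4 groups of RBE, a second cholangiocarcinoma line. Both lines carry mutant IDH1 and express much SULT1A1 by their labels, a background that the DMSO controls share, and no dose is stated. DMSO is a solvent and was the control. The design text calls the 3 libraries of a group biological replicates. A separate time label goes against the titles, since it gives 16 h for all DMSO samples and 6 h for all YC-1 samples; times here follow the titles.

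YC-1 is a benzylindazole that stimulates soluble guanylate cyclase, the receptor of nitric oxide, and that lowers HIF-1 alpha protein. SULT1A1 is a cytosolic sulfotransferase, and in cells that hold it some benzylic alcohols are turned into reactive sulfate esters. An effect of a compound is always a contrast with a solvent control of the same age, so an effect can change because treated cells moved, because solvent-treated cells moved, or because both did. NF-kB targets and cell division genes, which lead the lists below, are read here in both treated and solvent-treated cells for that reason.

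The deposited values are normalised counts per gene, and 16387 genes passed a filter of at least 10 in at least 3 libraries. Summed values were 20430000 to 26830000 in the YC-1 libraries and 19010000 to 20310000 in the DMSO libraries. Bile duct markers were high, with KRT7 at 46047, 70075 and 36589.5 in the YC-1 libraries at 16 h and 37839, 32169 and 25549.5 in the DMSO libraries at 16 h. None of 11 tested bile duct markers and none of 8 tested hepatocyte markers passed the interaction test. Of 3 tested leukocyte markers CD14 passed; it held 38.4, 62.6 and 41.4 in YC-1 libraries at 16 h and 12.1, 7.60 and 5.30 at 6 h, against 0 in every DMSO library at 16 h and 2.01, 0.841 and 0.944 at 6 h. The 10 leukocyte markers summed to 1135 to 4189 in YC-1 libraries at 16 h and 1443 to 1681 at 6 h, against 1435 to 1569 in DMSO libraries at 16 h and 1361 to 1387 at 6 h; 7, with PTPRC, were too low to be tested, and their part in the results was not tested. In 3 groups 1 library was the farthest from its mates, replicate 2 of YC-1 at 16 h, replicate 1 of YC-1 at 6 h and replicate 1 of DMSO at 16 h, with a median absolute log2 difference to the mates of 0.351 to 0.484. The other 9 libraries had 0.134 to 0.383, the highest in replicate 3 of YC-1 at 16 h, so the 2 ranges overlapped. The 3 that stood apart deviated from their group means together. Correlations were 0.375 for DMSO at 16 h with YC-1 at 6 h, 0.357 for the 2 YC-1 libraries and 0.233 for the 2 at 16 h. Over all pairs from different groups they were -0.375 to 0.357 with different numbers and -0.238 to 0.375 with the same number. The source of the shared deviation was not tested. The part of these 3 libraries in the results was not tested beyond leaving them out. Mitochondrially encoded transcripts made up 3.38% of the values in replicate 2 of YC-1 at 16 h, against 18.1% and 22.1% in its mates and 6.02% to 8.50% in the 6 DMSO libraries. Main counts are given with all 12 libraries and, beside them, without these 3.

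The YC-1 effect changed between the times for 901 genes (5.5% of those tested), 384 towards higher (2.34%) and 517 towards lower (3.15%) at 16 h. The effect of YC-1 itself passed for 8065 genes at 16 h (49.2%) and for 3299 genes at 6 h (20.1%), and both effects are part of the interaction. Between 16 h and 6 h the YC-1 level changed for 2379 genes (14.5%) and the DMSO level for 409 genes (2.5%). The 2 terms share no library, but each shares its libraries with the interaction, so their agreement with it is built in. Tests were limma's moderated test on log2(normalised count + 1), and "passed" means a Benjamini-Hochberg adjusted p under 0.05.

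Most of the 901 genes were placed by the YC-1 level. For 580 (64.4%) only the change under YC-1 passed, for 148 (16.4%) only the change under DMSO, for 49 (5.44%) both, and for 124 (13.8%) neither term passed alone. A term that misses the threshold is not shown to be unchanged, so the sizes of the terms were also tested against each other. The YC-1 change was the larger one for 206 genes and the DMSO change for 61, and for 634 genes the 2 sizes could not be told apart. Over all genes the summed terms passed towards higher for 2.94% and towards lower for 5.57%. Genes placed by the YC-1 level had a median absolute change of 0.967 under YC-1 and 0.259 under DMSO on the log2 scale. Genes placed by the DMSO level had medians of 0.247 under YC-1 and 1.07 under DMSO. These contrasts are built into the classes, and the sizes could not be told apart for 376 of the 580 and 91 of the 148. The 2 terms had opposite signs in 758 of the 901 genes, which choosing genes by a large difference of the terms favours. Of the 901, the YC-1 effect passed at 16 h only for 534, at 6 h only for 50 and at neither time for 3. It passed at both times in one direction for 275 with a larger and 9 with a smaller effect at 16 h. At both times with opposite directions it passed for 30. Over all genes the effect passed for 49.2% at 16 h and 20.1% at 6 h.

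**Figure D1:**
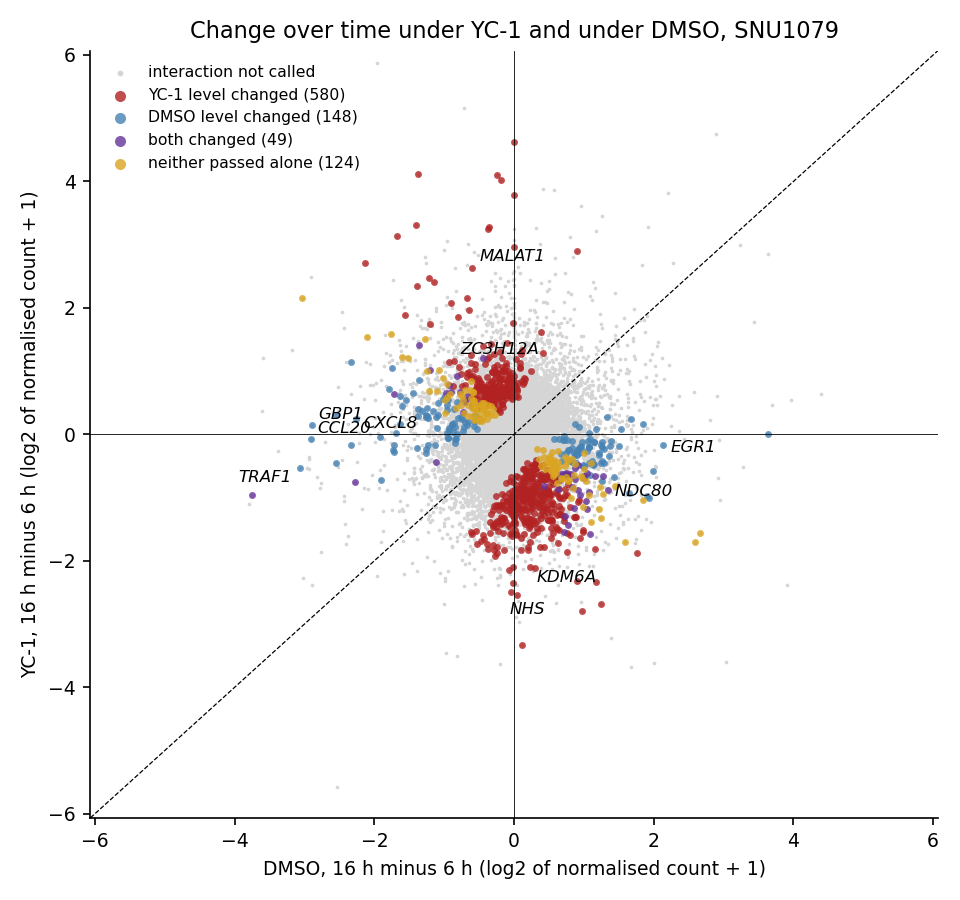
Each point is a gene, with the change of the DMSO level (16 h minus 6 h) on the horizontal axis and the change of the YC-1 level on the vertical axis, both as log2 differences of normalised count + 1. Coloured points are the 901 genes whose YC-1 effect changed, by the term that passed, and distance from the dashed diagonal is the size of the interaction (580 placed by the YC-1 level, 148 by the DMSO level).

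Without the 3 libraries that stood apart, 3897 of 15842 genes passed (24.6%), 12.5% towards higher and 12.1% towards lower, the shares against which list counts without these libraries are to be read. The 3 were picked from these same values for their distance to group mates, so less spread and more calls are partly built in. Counts without them are a description and no independent support. Of the 901 genes, 875 were among the 3897, none in the other direction. The number of genes placed by the YC-1 level alone was then 2150 and by the DMSO level alone 746, while the YC-1 change passed for 27.2% of all genes and the DMSO change for 5.31% towards higher and 7.17% towards lower. Leaving out single libraries also moved the count, which was 2311 without replicate 1 of YC-1 at 6 h and 286 to 405 without any one of the other 2 YC-1 libraries at 6 h, replicates 2 and 3 of DMSO at 16 h or the 3 DMSO libraries at 6 h. The balance of directions depends on the scale between libraries. When libraries were scaled to equal sums, the median interaction over all genes was -0.28, against 0.03 on the authors' scale. Of 16347 genes, 131 then passed towards higher and 1682 towards lower (11.1% in either direction). List counts under equal sums are to be read against these. Directions below are on the authors' scale. Under equal sums the median interaction was below 0 for the ATF4 and CHOP (-0.29), MAPK feedback (-0.21), interferon (-0.10), p53 (-0.06), heat shock (-0.09), unfolded protein response (-0.18), nucleolar (-0.04) and sulfonation (-0.18) lists, whose medians on the authors' scale were 0.02 to 0.27. Of 87 genes chosen for naming that passed, 46 passed whichever library was left out. The other 41 include MALAT1, PALM2, RNASE7, KDM6A, LINC01123, RELB, TNFAIP6, SRF, MAP1A, KLF10, MYC, KIF11, KIF18A, CHEK2, DUSP1, ATF4, SESN2, TP53I3, CIART, HLF, MCL1, AHR, GCLC, GUCY1A3, SLC26A2 and CD14, all with their direction kept. HSPA1A, HSPA1B, BAG3, MANF, HYOU1, RRP9, SULT1C2 and RNF207 are also among the 41, with their direction kept. Under equal sums TP53I3, HSPA1A, HSPA1B, BAG3, MANF, HYOU1, RRP9 and SULT1C2 did not pass.

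Among genes placed by a higher YC-1 level, MALAT1 had the largest interaction under the naming rule. MALAT1 is a long nuclear non-coding RNA (ENSG00000251562, chromosome 11, 65497688 to 65506516). It held 10894, 11136 and 23319 in the YC-1 libraries at 16 h and 1095, 3041 and 3545 in those at 6 h. DMSO libraries held 661, 1335 and 1374 at 16 h and 2241, 1995 and 948 at 6 h. All YC-1 libraries at 16 h lay above all others, while the other 3 groups overlapped. The interaction was 3.24 ± 0.67 (log2 ± SE, adjusted p = 0.0189) and the YC-1 change 2.63 ± 0.47 (adjusted p = 0.0044). With 1 library left out it was 2.71 to 3.62 and passed in 10 of 12 fits.

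ZC3H12A encodes regnase-1, an RNase that degrades transcripts of inflammatory cytokines (ENSG00000163874, chromosome 1, 37474552 to 37484379). Under YC-1 it held 442, 662 and 369 at 16 h and 282, 171 and 196 at 6 h. Under DMSO it held 106, 126 and 90.8 at 16 h and 172, 173 and 249.7 at 6 h. YC-1 libraries at 16 h were above every other library, and DMSO libraries at 16 h were the lowest. The interaction was 2.03 ± 0.38 (adjusted p = 0.0115), with a YC-1 change of 1.17 ± 0.27 (adjusted p = 0.0144) and a DMSO change of -0.87 ± 0.27 (adjusted p = 0.118).

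RNASE7, an antimicrobial ribonuclease of epithelia, held 164, 106 and 268 in YC-1 libraries at 16 h and 21.0, 24.5 and 19.4 at 6 h. In DMSO libraries it held 102, 70.0 and 60.2 at 16 h and 42.1, 44.2 and 34.5 at 6 h. The times did not overlap under either condition, but the DMSO change (0.90 ± 0.33) did not pass, and the YC-1 change (2.90 ± 0.33) was the larger one by test. KCTD13, an adaptor of the cullin-3 ubiquitin ligase, had an interaction of 1.86 ± 0.34, and its YC-1 effect passed at both times, at 3.73 at 16 h and 1.87 at 6 h. PALM2 had an interaction of 2.99 ± 0.63 and a YC-1 change of 2.08 ± 0.44.

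NHS led the genes placed by a lower YC-1 level. NHS encodes a regulator of the actin cytoskeleton (ENSG00000188158, chromosome X, 17375420 to 17735994). It held 37.9, 17.7 and 13.0 in YC-1 libraries at 16 h and 88.7, 168 and 132 at 6 h. The DMSO libraries held 581, 613 and 859.6 at 16 h and 720.3, 636 and 613 at 6 h. The 4 groups formed 3 steps, with YC-1 at 16 h below YC-1 at 6 h and both below the DMSO libraries, whose times overlapped. The interaction was -2.59 ± 0.49 (adjusted p = 0.012), and the YC-1 effect was -4.96 ± 0.34 at 16 h and -2.38 ± 0.34 at 6 h.

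KDM6A, a histone H3 lysine demethylase on the X chromosome (ENSG00000147050, chromosome X, 44873177 to 45112602), held 28.2, 11.2 and 19.1 in YC-1 libraries at 16 h and 46.5, 83.7 and 137 at 6 h. Its DMSO libraries held 322, 363 and 379 at 16 h and 303, 359 and 253 at 6 h. The pattern was the same in order as for NHS, with an interaction of -2.32 ± 0.53 (adjusted p = 0.0287) and a YC-1 change of -2.09 ± 0.38, which was larger than the DMSO change by test. The interaction of KDM6A was -2.71 to -1.95 with 1 library left out and passed in 5 of 12 fits. ELMSAN1, a partner of histone deacetylases, differed in that its YC-1 effect did not pass at 6 h (-0.51 ± 0.27, adjusted p = 0.21) and was -2.97 ± 0.27 at 16 h. LINC01123, a long non-coding RNA, had a YC-1 effect of -4.18 at 16 h and -1.76 at 6 h. ZBED3, which binds axin in the Wnt pathway, had a YC-1 change of -1.59 ± 0.30.

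The genes placed by the DMSO level included many targets of NF-kB. NF-kB is a family of transcription factors that is held in the cytoplasm by inhibitors and, once freed, drives chemokines, adhesion molecules and its own inhibitors. Of 24 tested members of the list of NF-kB targets, chemokines and cytokines, the YC-1 effect changed towards higher for 14 and towards lower for 1, with a median interaction of 1.37 against 0.03 over all genes. The DMSO level fell for 15 and rose for none (1.51% and 0.982% of all genes), with a median of -1.35. Under YC-1 the level rose for 3 and fell for 4 (6.3% and 8.22% of all genes), with a median of -0.05. Without the 3 libraries the interaction counts were 15 and 1, and the DMSO level fell for 18; under equal sums the interaction counts were 9 and 1.

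CXCL8, the neutrophil chemokine interleukin-8 (ENSG00000169429, chromosome 4, 73740506 to 73743716), held 6816, 5640.1 and 8019 in YC-1 libraries at 16 h and 4391, 6385 and 6652 at 6 h. The DMSO libraries held 145, 154 and 143 at 16 h and 808, 716 and 614 at 6 h. YC-1 libraries overlapped between the times, while DMSO libraries at 16 h all lay below those at 6 h. The interaction was 2.50 ± 0.26 (adjusted p = 0.000481), the YC-1 change 0.24 ± 0.18 (adjusted p = 0.401) and the DMSO change -2.26 ± 0.18 (adjusted p = 5.33e-05). The YC-1 effect was 5.51 ± 0.18 at 16 h and 3.01 ± 0.18 at 6 h. Reads of CXCL8 and its close relatives may be shared.

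CCL20, a chemokine for CCR6-bearing lymphocytes and dendritic cells (ENSG00000115009, chromosome 2, 227805739 to 227817564), held 265, 159 and 285 in YC-1 libraries at 16 h and 189, 272 and 273 at 6 h. It was listed at 0, 0 and 1.18 in DMSO libraries at 16 h and at 9.68, 8.95 and 7.79 at 6 h. The DMSO libraries at 16 h were near 0, so the interaction of 2.84 ± 0.54 (adjusted p = 0.0123) depends on the pseudocount. With a pseudocount of 10 the interaction of CCL20 was 0.79 and did not pass (adjusted p = 0.191). TNFAIP3, the A20 protein that restrains NF-kB (ENSG00000118503, chromosome 6, 137867188 to 137883312), held 733, 986 and 644 in YC-1 libraries at 16 h and 1089, 1044 and 1040 at 6 h. Its DMSO libraries held 89.9, 56.6 and 81.8 at 16 h and 354, 475 and 522 at 6 h, and no groups overlapped. The interaction of TNFAIP3 was 2.11 ± 0.31 (adjusted p = 0.00429), with a DMSO change of -2.56 ± 0.22 that passed and a YC-1 change of -0.45 ± 0.22 that did not.

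BIRC3, an inhibitor of apoptosis that acts at the TNF receptor (ENSG00000023445, chromosome 11, 102317450 to 102339403), held 3722, 2898 and 5059.9 in YC-1 libraries at 16 h and 3012, 7840 and 7105 at 6 h. It held 626, 751 and 1019 in DMSO libraries at 16 h and 7241, 7115 and 5407 at 6 h. At 6 h the YC-1 and DMSO libraries overlapped, and at 16 h the DMSO libraries were all below. Its YC-1 effect was 2.28 ± 0.32 at 16 h (adjusted p = 0.000107) and -0.24 ± 0.32 at 6 h (adjusted p = 0.665). NFKB2 and RELB, which encode the subunits of the non-canonical NF-kB dimer, had DMSO changes of -1.92 ± 0.15 and -2.33 ± 0.32 and YC-1 changes of -0.04 and -0.16. For CXCL8, CCL20, TNFAIP3, BIRC3, NFKB2 and RELB the DMSO change was the larger term by test.

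Other members of the list went another way. NFKBIA, the inhibitor IkB alpha, fell under both, by 0.63 on the log2 scale under YC-1 and by 0.94 under DMSO, and its interaction of 0.31 ± 0.19 did not pass (adjusted p = 0.338). TNFAIP6, a hyaluronan-binding secreted protein, was the member with a lower interaction (-2.18 ± 0.48, adjusted p = 0.0251). It held 30.1, 25.2 and 18.7 in YC-1 libraries at 16 h and 54.8, 105 and 82.0 at 6 h, with no overlap. In DMSO libraries it held 77.4, 45.4 and 38.1 at 16 h and 34.3, 32.3 and 39.2 at 6 h, and these overlapped. TNFAIP3, NFKB2, RELB, NFKBIA and TNFAIP6 were chosen after their values were seen.

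**Figure D2:**
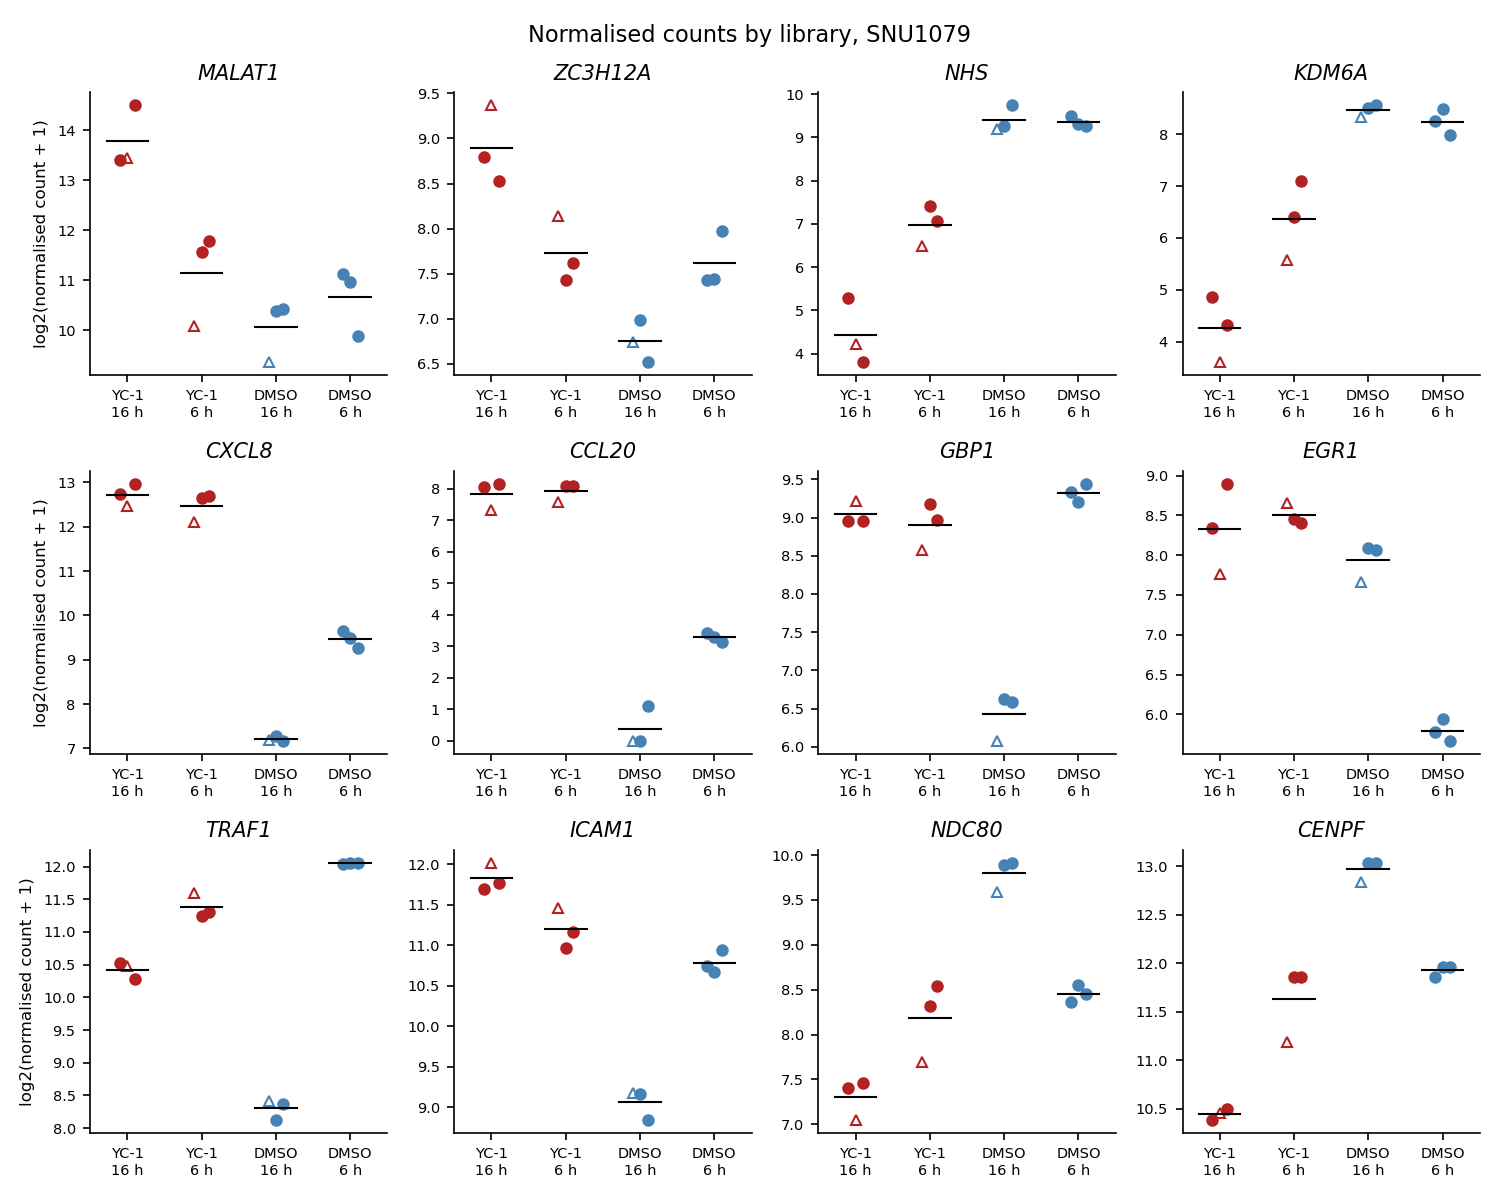
Points are libraries, 3 per group, and the vertical axis is log2(normalised count + 1) on its own scale in each panel; lines are means of the log2 values in a group, red is YC-1, blue is DMSO, and open triangles are the 3 libraries that stood apart. MALAT1 and ZC3H12A are highest and NHS and KDM6A lowest in YC-1 at 16 h, CXCL8, CCL20 and GBP1 are lowest in DMSO at 16 h while the YC-1 groups overlap, and EGR1 is lowest in DMSO at 6 h.

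GBP1, a guanylate-binding protein induced by interferons (ENSG00000117228, chromosome 1, 89052319 to 89065360), had the largest interaction among named genes placed by the DMSO level. It held 497, 594 and 497 in YC-1 libraries at 16 h and 379, 575 and 498 at 6 h. It held 66.5, 97.3 and 95.4 in DMSO libraries at 16 h and 645, 588 and 694 at 6 h. The DMSO libraries at 16 h were below every other library and the 2 YC-1 groups overlapped. The interaction was 3.04 ± 0.29 (adjusted p = 0.000298) and the DMSO change -2.90 ± 0.20 (adjusted p = 1.83e-05). Of 34 tested interferon response and antigen presentation genes, 4 changed towards higher and 3 towards lower, or 10 and 3 without the 3 libraries and 2 and 6 under equal sums. The shares over all genes were 2.34% towards higher and 3.15% towards lower, or 12.5% and 12.1% without the 3 libraries. Reads of GBP1 may be shared with its close relatives, since the counting rule for such reads is not given in the sources used here.

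Promoters of these lists were searched for short elements. The letters GGANTTTCC, an NF-kB site, searched on both strands of the 250 bases before the start, occurred in 11 of 20 matched members of the NF-kB list (55%), against 1.47% of 10857 promoters of tested genes. The interferon-stimulated element (GAAA, any 2 bases, then GAAA) occurred in 14 of 26 matched interferon genes (53.8%), against 2.39%. The lists are of known targets and responders, so these shares follow from the lists and not from the changes measured here. A pair of promoters with each element is shown from RefSeq on GRCh38.p14, 5′ to 3′ on the strand of the gene. The matched letters of the element each is shown for (on either strand) are in capitals. The stretches end 1 base before the start for CXCL8 (chr4:73740449-73740568, plus strand) and TNFAIP3 (chr6:137867139-137867258, plus strand), and 61 bases before it for GBP1 (chr1:89065269-89065388, minus strand) and TAP1 (chr6:32853765-32853884, minus strand). GENCODE 29 places the first base of CXCL8, TNFAIP3 and GBP1 inside these stretches, so the start depends on the annotation. By GENCODE 29 the capitalised match lies after the first base in TNFAIP3 and GBP1 and before it in CXCL8.
CXCL8: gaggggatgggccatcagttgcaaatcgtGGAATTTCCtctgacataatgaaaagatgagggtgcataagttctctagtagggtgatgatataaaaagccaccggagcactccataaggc
TNFAIP3: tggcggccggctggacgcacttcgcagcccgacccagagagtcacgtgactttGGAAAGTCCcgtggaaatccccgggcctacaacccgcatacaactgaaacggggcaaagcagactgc
GBP1: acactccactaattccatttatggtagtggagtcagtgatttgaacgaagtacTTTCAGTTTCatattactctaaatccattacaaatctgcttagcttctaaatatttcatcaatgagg
TAP1: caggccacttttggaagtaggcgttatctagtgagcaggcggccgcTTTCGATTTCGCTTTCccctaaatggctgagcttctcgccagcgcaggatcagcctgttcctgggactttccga
The matches in TNFAIP3, GBP1 and TAP1 read on the other strand. In TAP1, which encodes a peptide transporter for antigen presentation, 2 overlapping matches are capitalised, and the NF-kB letters near the end of its stretch are left in lower case. Over all genes placed by the DMSO level with a higher interaction, the NF-kB letters were in 4 of 57 promoters (7.02%), and over those placed by a higher YC-1 level in 4 of 164 (2.44%). The interferon-stimulated element was in 4 of 57 (7.02%) and in 2 of 164 (1.22%).

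PHLDA2, an imprinted growth suppressor of the placenta, and WNT4, a secreted Wnt ligand, were also placed by the DMSO level. PHLDA2 had a DMSO change of -1.74 ± 0.38 and WNT4 of -2.54 ± 0.34, and their interactions were 2.79 and 2.85. WNT4 held 33.1, 17.2 and 19.9 in DMSO libraries at 16 h and 135, 119 and 156 at 6 h, with no overlap.

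Of the 148 genes placed by the DMSO level, 73 changed towards lower, and those named had a DMSO level that rose with time. EGR1, an immediate early transcription factor of growth factor signalling (ENSG00000120738, chromosome 5, 138465490 to 138469315), held 325, 215 and 475 in YC-1 libraries at 16 h and 403, 349.5 and 339 at 6 h. It held 202, 270.4 and 266 in DMSO libraries at 16 h and 54.0, 60.6 and 49.8 at 6 h. The DMSO libraries at 6 h were the lowest, and at 16 h the YC-1 and DMSO libraries overlapped. The interaction was -2.31 ± 0.37 (adjusted p = 0.0058), with a DMSO change of 2.14 ± 0.26, and the YC-1 effect was 0.40 ± 0.26 at 16 h and 2.71 ± 0.26 at 6 h. FAM214A had a DMSO change of 1.43 ± 0.22, SPTLC3, a subunit of serine palmitoyltransferase, of 1.26 ± 0.28, NEURL1B, a ubiquitin ligase for Notch ligands, of 1.29 ± 0.22, and MAP1A, a microtubule-associated protein, of 1.09 ± 0.24.

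Without the 3 libraries 3 of 25 tested immediate early genes changed in each direction, against 12.5% of all genes towards higher and 12.1% towards lower. With all 12 libraries 2 changed towards higher and 3 towards lower, against 2.34% and 3.15% of all genes. MAFF and SRF, the higher ones, were placed by a DMSO level that was lower at 16 h (DMSO changes of -0.96 and -0.97). The lower ones were EGR1, KLF10 and MYC, and the interactions were -1.01 for KLF10 and -0.94 for MYC. MYC, a growth-promoting transcription factor, held 1535, 1203 and 1478 in YC-1 libraries at 16 h and 4806, 3608 and 3979 at 6 h, and 2530.5, 2329 and 1918 in DMSO libraries at 16 h and 3526, 3339.6 and 3420.3 at 6 h. Its YC-1 change of -1.55 ± 0.15 was larger than its DMSO change of -0.61 ± 0.15 by test.

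For 49 genes both terms passed. TRAF1, an adaptor of TNF receptors and an NF-kB target (ENSG00000056558, chromosome 9, 120902393 to 120929173), held 1472, 1422 and 1239.9 in YC-1 libraries at 16 h and 3085, 2419 and 2528 at 6 h. It held 339, 278 and 329.7 in DMSO libraries at 16 h and 4206, 4261 and 4244 at 6 h. Both conditions were lower at 16 h without overlap, by -0.95 ± 0.14 under YC-1 and by -3.75 ± 0.14 under DMSO as signed log2 changes. The YC-1 effect was 2.12 at 16 h and -0.67 at 6 h, so its direction turned.

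ICAM1, an endothelial and epithelial adhesion molecule, instead moved in opposite directions, up under YC-1 (0.63 ± 0.16) and down under DMSO (-1.72 ± 0.16). It held 3317, 4152 and 3498 in YC-1 libraries at 16 h and 2829.8, 1997 and 2293 at 6 h, against 580.1, 571 and 459 in DMSO libraries at 16 h and 1719, 1625 and 1963 at 6 h. TAP1 did likewise, at 3286, 3055 and 2761 in YC-1 libraries at 16 h and 1704, 1461 and 1638 at 6 h, against 911, 870 and 801 in DMSO libraries at 16 h and 1610.1, 1412 and 1510.4 at 6 h. At 6 h the YC-1 and DMSO libraries of TAP1 overlapped and at 16 h they were apart. The row named 7SK, after the non-coding RNA that holds the elongation factor P-TEFb inactive, had an interaction of 2.77 ± 0.46. Its reads may be shared with the many genomic copies of 7SK. How well these mRNA libraries measure this non-coding RNA was not tested.

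NR5A2, a nuclear receptor of liver and pancreas (ENSG00000116833, chromosome 1, 200027602 to 200177424), was lower under YC-1 and higher under DMSO at 16 h. It held 31.7, 41.0 and 43.8 in YC-1 libraries at 16 h and 90.9, 133 and 129.9 at 6 h, against 335, 431 and 486 in DMSO libraries at 16 h and 210.5, 176 and 197 at 6 h. None of the 4 groups overlapped with another. SRSF5, a splicing factor of the serine and arginine rich family, had an interaction of -2.26 ± 0.19, and its YC-1 change (-1.55 ± 0.14) was the larger term by test. ASF1A, a histone chaperone, had an interaction of -2.20 ± 0.23.

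Genes of G2 and mitosis formed the other large group with a DMSO term. Of 39 tested members none changed towards higher and 18 towards lower, with a median interaction of -1.17. The DMSO level rose for 14 and fell for none (median 0.70), and the YC-1 level rose for 3 and fell for 8 (median -0.35). Of the 18, 8 were placed by the DMSO level, 4 by the YC-1 level and 4 by both, and 2 passed on neither term alone. The YC-1 effect was lower for 35 of the 39 at 16 h and for 3 at 6 h (23.7% and 10.5% of all genes). Without the 3 libraries 33 of 39 changed towards lower and the DMSO level rose for 35, and under equal sums 30 changed towards lower.

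CENPF, a kinetochore protein (ENSG00000117724, chromosome 1, 214603195 to 214664588), held 1338, 1408 and 1447 in YC-1 libraries at 16 h and 2327, 3707 and 3712 at 6 h. The DMSO libraries held 7296, 8351 and 8377 at 16 h and 3713, 3975 and 3983 at 6 h. None of the 4 groups overlapped, though at 6 h YC-1 values of 3707 and 3712 lay just below the lowest DMSO value of 3713. The distance between YC-1 and DMSO libraries was wider at 16 h, with YC-1 down and DMSO up. The interaction was -2.22 ± 0.23 (adjusted p = 0.000481), and the 2 changes, -1.18 and 1.04, could not be told apart in size.

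NDC80, another kinetochore protein (ENSG00000080986, chromosome 18, 2571511 to 2616635), held 168, 131 and 175 in YC-1 libraries at 16 h and 205, 317 and 372 at 6 h, against 772, 949.8 and 963 in DMSO libraries at 16 h and 328, 373 and 350 at 6 h. At 6 h the groups overlapped, and at 16 h they did not. AURKA, the centrosomal kinase, had a YC-1 change of -1.36 ± 0.18 (adjusted p = 0.000815) and a DMSO change of 0.53 ± 0.18 (adjusted p = 0.147). KIF18A, a kinesin that shortens spindle microtubules, was likewise placed by the YC-1 level (-1.48 ± 0.34). KIF11, the kinesin that separates the spindle poles, had an interaction of -2.15 ± 0.51 while neither term passed.

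A pair of promoters is shown for an element frequent in this list. The letters TTTGAA, the cell cycle homology element, were in 18 of 33 matched members (54.5%) and in 8.46% of all promoters, and CCAAT was in 25 (75.8%) and in 34.9%. The list is of known G2 and mitosis genes, so these shares follow from the list and not from the changes measured here. Among genes with a lower interaction, TTTGAA was in 12 of 60 placed by the DMSO level (20%) and 35 of 279 placed by the YC-1 level (12.5%). The 120 bases before the RefSeq start are given for KIF11 (chr10:92593010-92593129, plus strand) and CCNB2 (chr15:59105026-59105145, plus strand), with that element in capitals, which in KIF11 reads on the other strand. GENCODE 29 places the first base of CCNB2 inside its stretch, and the capitalised match lies after that base.
KIF11: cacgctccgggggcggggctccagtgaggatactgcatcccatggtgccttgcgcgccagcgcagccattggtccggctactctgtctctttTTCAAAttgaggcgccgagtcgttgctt
CCNB2: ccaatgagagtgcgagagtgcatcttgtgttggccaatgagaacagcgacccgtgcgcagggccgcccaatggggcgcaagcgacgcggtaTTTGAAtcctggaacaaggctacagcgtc
CCNB2, cyclin B2, chosen here after its values were seen, had an interaction of -1.37 ± 0.25 (adjusted p = 0.0112). It held 325, 227 and 274 in YC-1 libraries at 16 h and 354, 461 and 477 at 6 h, against 733, 899 and 791 in DMSO libraries at 16 h and 446, 516 and 497 at 6 h.

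Genes of S phase and of DNA repair followed in smaller number. Of 36 tested G1/S and DNA replication genes, 6 changed towards lower and none towards higher (median -0.55), or 18 and 2 without the 3 libraries and 16 and none under equal sums. The shares over all genes were 3.15% towards lower and 2.34% towards higher, or 12.1% and 12.5% without the 3 libraries. RRM2, the small subunit of ribonucleotide reductase, held 2539, 2489 and 2165 in YC-1 libraries at 16 h and 3687, 3668 and 3699 at 6 h, against 6019.5, 6197 and 7078 in DMSO libraries at 16 h and 4007, 4107 and 3975 at 6 h. Both terms of RRM2 passed, -0.62 under YC-1 and 0.67 under DMSO, with no overlap between the times. Of 30 tested Fanconi, homologous recombination and checkpoint genes, 4 changed towards lower and 1 towards higher (median -0.66), or 14 and 2 without the 3 libraries (12.1% and 12.5% of all genes), with BRCA1 at -1.37 ± 0.23 and CHEK2 at -1.27 ± 0.33. In bulk RNA, fewer dividing cells and less RNA per dividing cell cannot be told apart.

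**Figure D3:**
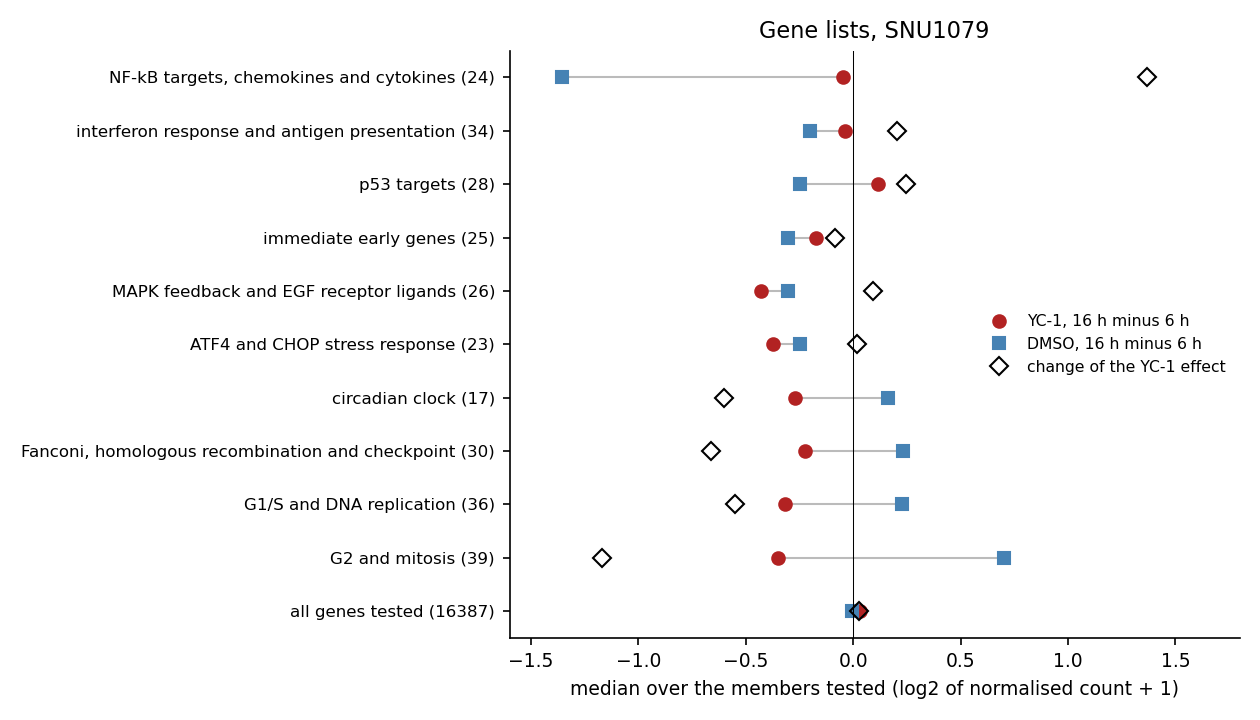
Points are medians over the tested members of each list (number in brackets) of the YC-1 change (red circles), the DMSO change (blue squares) and the change of the YC-1 effect (open diamonds), as log2 differences of normalised count + 1. The NF-kB list has a DMSO median of -1.35 and a YC-1 median of -0.05, the G2 and mitosis list has a DMSO median of 0.70 and a YC-1 median of -0.35, and all genes lie near 0.

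Feedback genes of growth factor signalling that passed were lower under YC-1 at 16 h. Of 26 tested MAPK feedback genes and EGF receptor ligands, 4 changed towards lower and none towards higher, all 4 placed by the YC-1 level, although the median interaction of the list was 0.09. Without the 3 libraries the counts were 4 lower and 4 higher, and under equal sums 7 lower with a median of -0.21. Over all genes 3.15% passed towards lower and 2.34% towards higher, or 12.1% and 12.5% without the 3 libraries. DUSP10, a phosphatase of the stress kinases p38 and JNK (ENSG00000143507, chromosome 1, 221701424 to 221742176), held 398, 284 and 248 in YC-1 libraries at 16 h and 1064, 1000.2 and 1075 at 6 h. It held 1112, 1626 and 1351 in DMSO libraries at 16 h and 1059, 1039.8 and 1013 at 6 h. The YC-1 libraries at 16 h were alone at the bottom, and the interaction was -2.16 ± 0.26 (adjusted p = 0.00142).

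PHLDA1, SPRY2 and DUSP1 had another shape, with a positive YC-1 effect at 6 h and a smaller value at 16 h. SPRY2, an inhibitor of receptor tyrosine kinase signalling, held 362, 356 and 318 in YC-1 libraries at 16 h and 859.8, 775 and 827 at 6 h, against 308, 232 and 256 in DMSO libraries at 16 h and 289, 285 and 234 at 6 h. Its YC-1 effect was 0.39 ± 0.16 at 16 h (adjusted p = 0.0655) and 1.61 ± 0.16 at 6 h (adjusted p = 3.36e-05). PHLDA1 had 0.45 at 16 h and 2.36 at 6 h. DUSP1, a phosphatase of MAP kinases chosen after its values were seen, had an interaction of -0.85 ± 0.17.

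The ATF4 and CHOP response, which follows translation arrest by phosphorylated eIF2 alpha, was high at both times. Of 23 tested members the YC-1 effect was higher for 19 at 16 h and for 20 at 6 h (25.5% and 9.6% of all genes), and the interaction passed for 5, all lower, with a median of 0.02. Without the 3 libraries 6 passed towards lower and 3 towards higher, and under equal sums 6 towards lower with a median of -0.29. The interaction passed towards lower for 3.15% of all genes, or 12.1% without the 3 libraries, and towards higher for 2.34%, or 12.5%. CHAC1, an enzyme that degrades glutathione (ENSG00000128965, chromosome 15, 40952962 to 40956519), held 322, 277 and 269 in YC-1 libraries at 16 h and 1523, 903 and 859.6 at 6 h. DMSO libraries held 47.3, 49.6 and 55.0 at 16 h and 53.4, 64.8 and 63.2 at 6 h and overlapped. Its YC-1 effect was 2.49 ± 0.23 at 16 h and 4.11 ± 0.23 at 6 h, and its interaction -1.62 ± 0.32 (adjusted p = 0.0148).

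ATF4 itself, chosen after its values were seen, held 3787, 4207 and 3090 in YC-1 libraries at 16 h and 7816, 6520.2 and 6995 at 6 h, against 3265, 3005 and 2873 in DMSO libraries at 16 h and 3476, 3277 and 3593 at 6 h. The YC-1 libraries of ATF4 at 16 h overlapped with the DMSO libraries, and those at 6 h lay above all others. SESN2, a stress-induced inhibitor of mTORC1 signalling, fell likewise under YC-1 (-1.44 ± 0.17). VLDLR, a lipoprotein receptor, differed in that its YC-1 effect was negative at both times, -2.55 at 16 h and -0.43 at 6 h. DDIT3, which encodes CHOP, had an interaction of -0.85 ± 0.31 that did not pass (adjusted p = 0.12). ATF3 had 0.58 ± 0.32 (adjusted p = 0.291), with YC-1 effects of 5.76 at 16 h and 5.18 at 6 h.

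Of 28 tested p53 targets, 3 changed towards higher and 1 towards lower, against 2.34% and 3.15% of all genes. The counts were 6 and 4 without the 3 libraries, against 12.5% and 12.1% of all genes, and 2 and 2 under equal sums. GADD45A, a growth arrest gene, held 7975, 11440.2 and 9045 in YC-1 libraries at 16 h and 4567, 6305 and 5863 at 6 h, against 499, 794 and 705 in DMSO libraries at 16 h and 1118, 1161 and 1019 at 6 h. No groups overlapped, and its YC-1 change (0.76 ± 0.19) passed while its DMSO change (-0.75 ± 0.19, adjusted p = 0.063) did not. TP53I3 had an interaction of 1.34 ± 0.29. PLK2, a polo-like kinase, was the lower one (-1.12 ± 0.19), with a YC-1 effect of -1.12 at 16 h. CDKN1A, the cell cycle inhibitor p21, had an interaction of 0.30 ± 0.22 that did not pass (adjusted p = 0.424), with YC-1 effects of 1.91 at 16 h and 1.61 at 6 h. Under equal sums the interaction of CDKN1A turned to -0.00719.

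Of 17 tested circadian clock genes, which form a transcriptional feedback loop, 4 changed towards lower and none towards higher (median -0.60), or 4 in each direction without the 3 libraries. Over all genes 3.15% passed towards lower and 2.34% towards higher, or 12.1% and 12.5% without the 3 libraries. NR1D2, a heme-binding repressor, held 453, 626 and 481 in YC-1 libraries at 16 h and 922, 1182 and 1226 at 6 h, against 802, 770.4 and 1013 in DMSO libraries at 16 h and 527, 668 and 564 at 6 h. The YC-1 effect of NR1D2 was -0.73 at 16 h and 0.92 at 6 h, both past the threshold and opposite in sign. CIART had an interaction of -2.16 ± 0.45, NFIL3 of -1.35 ± 0.26 and HLF of -1.31 ± 0.33; HLF was placed by the DMSO level and the others by the YC-1 level.

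Single genes of other pathways were placed by the YC-1 level. LDHA, the glycolytic lactate dehydrogenase and a HIF-1 target, held 6105, 5139 and 6342 in YC-1 libraries at 16 h and 14125, 16635 and 16491 at 6 h, against 14540.1, 15177 and 16091 in DMSO libraries at 16 h and 16754, 15618 and 16061 at 6 h. It was the only one of 30 tested HIF-1 and glycolysis genes to pass, at -1.35 ± 0.16 (adjusted p = 0.00142). Of all genes 3.15% passed towards lower and 2.34% towards higher. Without the 3 libraries 3 of 29 list members passed towards lower and 4 towards higher, against 12.1% and 12.5% of all genes. MCL1, an anti-apoptotic protein with a short half-life, had a YC-1 change of -1.39 ± 0.18, AHR, the aryl hydrocarbon receptor, of -1.42 ± 0.24, and GCLC, the rate-limiting enzyme of glutathione synthesis, of -1.13 ± 0.19. CYR61, a YAP target, had -1.06 ± 0.11 and SMAD7, an inhibitor of TGF-beta signalling, -0.96 ± 0.17. DKK1, a secreted Wnt inhibitor, passed on both terms, with an interaction of -1.79 ± 0.24.

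Of 9 tested cyclic GMP signalling genes GUCY1A3 passed, while 3 of 8 passed towards lower without the 3 libraries and 4 of 9 under equal sums. The shares towards lower over all genes were 3.15% with all 12 libraries and 12.1% without the 3. GUCY1A3, a subunit of soluble guanylate cyclase, the enzyme on which YC-1 acts, held 147, 81.6 and 97.1 in YC-1 libraries at 16 h and 135, 234 and 188 at 6 h. It held 429.6, 396 and 515 in DMSO libraries at 16 h and 295, 276 and 298 at 6 h. The interaction was -1.39 ± 0.35 (adjusted p = 0.0403), and neither term passed alone. It passed in 2 of 12 fits with 1 library left out. SULT1A1 held 1416, 1806 and 1023 in YC-1 libraries at 16 h and 1912, 1322 and 1619 at 6 h, against 1690.4, 1414 and 1236 in DMSO libraries at 16 h and 1391, 1465 and 1478 at 6 h. All 4 groups of SULT1A1 overlapped and its interaction of -0.21 ± 0.29 did not pass (adjusted p = 0.712); its reads may be shared with near-identical relatives. SLC26A2, the sulfate transporter, had a YC-1 change of -1.78 ± 0.28 (adjusted p = 0.00219), and SULT1C2, another sulfotransferase, an interaction of 0.79 ± 0.20. SULT1C2 passed in 1 of 12 fits with 1 library left out. SLC26A2, SULT1C2 and SULT1C4 were the 3 of 17 tested sulfonation genes that passed, against 5.5% of all genes. Without the 3 libraries 1 passed in each direction, against 12.5% of all genes towards higher and 12.1% towards lower. Leaving out replicate 3 of YC-1 at 16 h turned the interaction of SULT1A1 to 0.0086.

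Calls in the chaperone and ribosome lists depend on the scale and on the 3 libraries. Under equal sums 1682 of all 16347 genes passed towards lower and 131 towards higher, against which the counts here are to be read. With all 12 libraries 2.34% of all genes passed towards higher and 3.15% towards lower, or 12.5% and 12.1% without the 3 libraries. Heat shock genes gave 3 towards higher of 22, or 8 towards higher and 4 towards lower without the 3 libraries, and 4 towards lower under equal sums; HSPA1B (1.50) and HSPA1A (1.06) are near-identical genes whose reads may be shared, and BAG3, their co-chaperone, had 0.83. Genes of the endoplasmic reticulum unfolded protein response gave 2 towards higher of 21, MANF (0.87) and HYOU1 (0.69), or 3 higher and 2 lower without the 3 libraries, and 3 towards lower under equal sums. Nucleolar ribosome biogenesis genes gave 3 towards higher of 33, with RRP9 at 1.21, or 8 higher and 2 lower without the 3 libraries, and 4 towards lower under equal sums. Of 54 cytosolic ribosomal protein genes 2 changed towards higher, and 15 had a higher YC-1 level at 16 h, against 0 and 2 under equal sums and 11 and 15 without the 3 libraries. None of 13 mitochondrially encoded mRNAs passed with all 12 libraries (median -0.02), and 11 passed towards higher without the 3 libraries (median 1.07); MT-CO1, a cytochrome c oxidase subunit, held 803741, 126858 and 1193230 in the YC-1 libraries at 16 h and 310129, 317527 and 439757 at 6 h, against 187470, 223043 and 254480 in the DMSO libraries at 16 h and 289381, 266615 and 245664 at 6 h.

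The direction of the interaction went with the span of the gene on the chromosome (GENCODE 29, GRCh38). Of 518 tested genes over 300 kb, 33 changed towards lower (6.37%) and 3 towards higher (0.579%). Of 4254 genes under 10 kb, 93 changed towards lower (2.19%) and 106 towards higher (2.49%). The median YC-1 change was -0.23 over the longest genes and 0.18 over the shortest, while the median DMSO change was 0.15 over the longest genes. Median YC-1 effects of the longest genes were -1.11 at 16 h and -0.68 at 6 h. The share towards higher was largest at 10 to 30 kb (3.49%). The median span was 46.1 kb for genes that changed towards lower and 18.7 kb for those towards higher, against 26.9 kb for all tested genes with coordinates. NHS and KDM6A, described above, span more than 100 kb each.

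**Figure D4:**
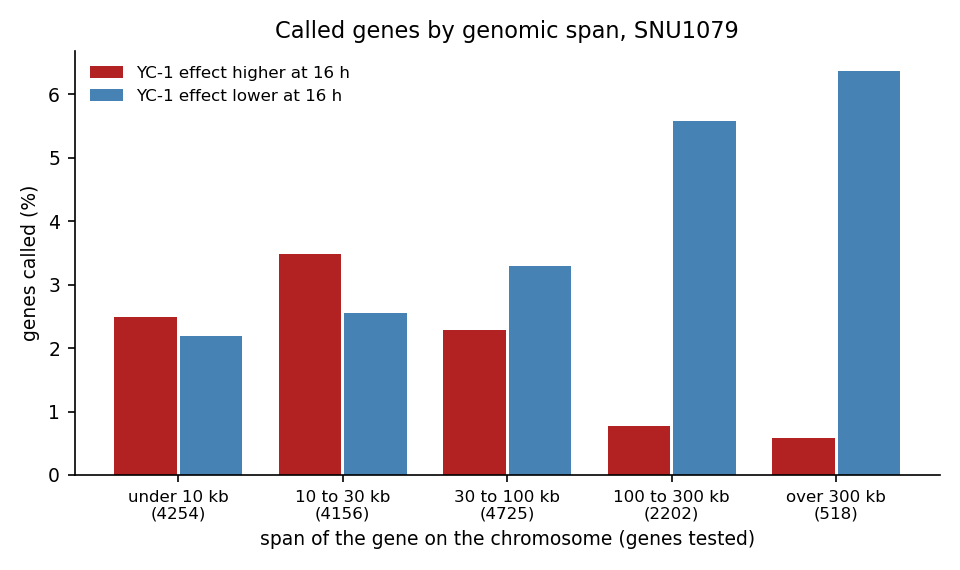
Bars give the percentage of tested genes whose YC-1 effect changed towards higher (red) or lower (blue) at 16 h, by the span of the gene; the number tested is under each bin. Towards lower, the share is 2.19% under 10 kb and 6.37% over 300 kb, and towards higher 2.49% and 0.579%.

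The same interaction in RBE was set against that in SNU1079 in a fit of all 24 libraries. The difference between the lines passed for 171 of 17860 genes (0.957%), 86 higher in SNU1079 (0.482%) and 85 lower (0.476%), and without the 3 libraries for 1689. Of 26 NF-kB list members tested there, 5 were among the higher ones (CXCL8, TNFAIP3, NFKB2, BIRC3 and SOD2) and none among the lower ones, with list medians of 1.19 in SNU1079 and -0.02 in RBE. Of 39 G2 and mitosis genes 6 were among the lower ones (CCNB2, CDC25C, AURKB, CENPF, KIF2C and NDC80), with list medians of -1.17 in SNU1079 and -0.36 in RBE. TRAF1 and GBP1 were also among the 86. Of 25 tested ATF4 and CHOP genes 1 differed between the lines (SLC7A5), and of 28 p53 targets 1 (DDB2). Genes whose difference did not pass are not shown to behave alike in the lines.

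CXCL8 held 409.9, 317 and 392 in YC-1 libraries of RBE at 16 h and 445, 467 and 397 at 6 h, against 139.6, 70.8 and 58.3 in DMSO libraries of RBE at 16 h and 99.8, 95.5 and 78.6 at 6 h. The DMSO libraries of RBE overlapped between the times, unlike those of SNU1079, and the difference between the lines was 2.61 ± 0.46 (adjusted p = 0.00629). TRAF1 had an interaction of 2.79 in SNU1079 and -0.12 in RBE (difference 2.91 ± 0.21, adjusted p = 1.35e-07). In RBE it held 624, 705 and 649.6 in DMSO libraries at 16 h and 1177, 1055 and 1045 at 6 h. The YC-1 effect on CENPF was lower at 16 h in both lines, with interactions of -2.22 in SNU1079 and -1.14 in RBE, and in RBE it also passed (adjusted p = 0.000246). Its DMSO libraries in RBE held 10202, 9551 and 10077 at 16 h and 11028, 10768 and 10186 at 6 h, and its YC-1 libraries 3875, 3793 and 3288 at 16 h and 8791, 7799 and 9281 at 6 h. EGR1 had an interaction of -2.31 in SNU1079 and 0.22 in RBE (difference -2.53 ± 0.52, adjusted p = 0.0206).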

How the data were processed

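RNA of SNU1079 and RBE cells was sequenced from TruSeq Stranded mRNA libraries, per the labels' protocols. The authors deposited DESeq2-normalised counts per gene, a signal scaled between libraries, and the submitters' processing notes name STAR, DESeq2 and hg38. The labels state no version, counting tool, strand setting or annotation release, so overlapping and near-identical genes are uncertain. Of the low values in each SNU1079 library, 53.0% to 77.1% lay within 0.1 of a multiple of a common step. Reads were therefore not recovered and depth is unknown. Of 57820 rows, 24157 were at 0 in every library. Symbols came from the file for 35049 rows and from an identifier table for 4727 (27 had become dates), and GENCODE 29 gave coordinates for 52338.

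limma 3.58.1 in R 4.3.3 was fitted to log2(normalised count + 1), with an intensity trend, for 16387 genes with at least 10 in at least 3 of the 12 SNU1079 libraries (8 residual degrees of freedom), and for 17860 genes in all 24 libraries to compare the lines. Tests were two-sided and adjusted by Benjamini-Hochberg over all genes tested, at 0.05. The pseudocount understates folds of low genes. Values per library are normalised counts and changes are log2 ± SE. An exact permutation test of 3 against 3 cannot go below 0.1 and was not used.

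Same-numbered libraries deviated together over 0.1 in 5 of 18 pairs, so the numbers were not taken to pair them.

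Named genes were, per class and direction, the 5 that passed with the largest interaction with at least 100 on average in their highest group (2 where neither term passed), up to 4 members per list, 3 per direction for the line difference, and 16 genes of interest. Other list members named as passing, and those said to be so, were chosen after their values were seen. Members and lists were chosen with earlier results of these data known. Alternatives changed the pseudocount, filter, scaling, variance trend, weights, block, size threshold and libraries.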

Additional observations from a re-analysis of the deposited data

Results flagged for a closer look

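The difference between the YC-1 effect at 16 h and at 6 h passed the test for 901 genes in SNU1079, and the difference between SNU1079 and RBE in that change passed for 171. Among these 171, the largest by the naming rule in each direction are given here.

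RNF207, a ring finger protein of heart muscle, had a difference of 4.12 ± 0.54 between the lines (log2 ± SE, adjusted p = 0.000462), with interactions of 2.09 in SNU1079 and -2.03 in RBE. In SNU1079 it held 152, 318 and 247 in YC-1 libraries at 16 h and 174, 145 and 154 at 6 h, against 144, 94.8 and 62.0 in DMSO libraries at 16 h and 277, 234 and 335 at 6 h. In RBE it held 72.5, 47.7 and 53.4 in YC-1 libraries at 16 h and 151, 168 and 123 at 6 h, against 209.8, 168 and 206 in DMSO libraries at 16 h and 121, 127 and 111 at 6 h. EGR1, described above, had -2.53 ± 0.52.

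DHRS2, a short-chain dehydrogenase, had a difference of -2.32 ± 0.38 (adjusted p = 0.00384), with interactions of -0.53 in SNU1079 and 1.79 in RBE. ART4, a mono-ADP-ribosyltransferase, had 4.07 ± 0.80, BDNF, a neurotrophin, 3.46 ± 0.79, and ANK1, an erythroid ankyrin, -4.20 ± 0.99. ART4, BDNF and ANK1 did not pass the filter on low values in SNU1079, so their fitted values rest on low values there and depend on the pseudocount. ANK1 was listed at 0, 0 and 0 in YC-1 libraries of SNU1079 at 16 h and 0.619, 9.28 and 0.993 at 6 h, against 6.29, 6.85 and 17.6 in DMSO libraries at 16 h and 0, 1.02 and 0 at 6 h.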

How the results depend on the processing

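No gene that passed the interaction test both as reported and under another setting changed direction. The 901 genes became 1008 with a pseudocount of 10, 1018 with a minimum of 50, 921 with recomputed median ratios, 677 without the variance trend, 637 with a log2 value of at least 1, and 660 without the 2 doubted libraries at 16 h, an alternative chosen after seeing the data. With the replicate number as a block 654 passed (70% of the 901 shared) and 137 had the larger YC-1 change. Without a filter on low values 549 passed, with 350 genes placed by the YC-1 level, 127 and 35 with the larger YC-1 and DMSO change, and 104 for the line difference. Equal sums gave 1813, with 1293 placed by the YC-1 level and 588 with the larger YC-1 change; leaving mitochondrial transcripts out of the sums gave 1237 and 346. Array weights gave 6445, with a YC-1 change for 7239, a DMSO change for 4487, a 6 h effect for 7981, 3450 and 1327 placed by the YC-1 and DMSO level, 2476 and 627 with the larger YC-1 and DMSO change, and 2668 for the line difference. A fit of all 24 libraries gave 3036, and in the same order 4572, 1530, 5042, 1882, 517, 943 and 224. Without the 3 libraries the values in that order were 3897, 4304, 1978, 5144, 2150, 746, 971 and 262, and 1689 for the line difference, which was 370 without the 2 at 16 h. A log2 value of at least 1 left 747 YC-1 changes, 156 DMSO changes, 1743 effects at 6 h, 4915 at 16 h and 134 larger YC-1 changes. Leaving out 1 library gave 286 to 2311 for the interaction, 971 to 3626 for the YC-1 change, 113 to 693 for the DMSO change, 6723 to 8678 for the 16 h effect, 2029 to 3754 for the 6 h effect, 173 to 1571 and 47 to 264 placed by the YC-1 and DMSO level, 53 to 601 and 21 to 103 with the larger YC-1 and DMSO change, and 95 to 555 for the line difference. Of 87 genes chosen by the naming rule or after their values were seen that passed, 77 passed under equal sums, 78 with the block (not RNASE7, CHEK2, BAG3, HYOU1, HLF, SLC26A2, GUCY1A3 and 2 others), 70 without the filter and 48 in the smallest of these fits. CDKN1A, which did not pass (0.30), turned to -0.00719 under equal sums, and SULT1A1, which did not pass (-0.21), ranged over -0.40 to 0.0086 when 1 library was left out, the highest without replicate 3 of YC-1 at 16 h. The cause of these moves was not tested, and fewer libraries leave fewer degrees of freedom. Leaving out the 3 libraries, picked from these same values, lowers the spread within groups, so a rise in calls is partly built in.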
